A study of Mus musculus with 6 samples.

Results

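Macrophages of the left ventricle were followed through 38 genes of identity and activation state, out of 47729 genes in the deposited table. They were chosen by symbol as known pan-macrophage, resident, monocyte-derived and lipid-associated genes, and all 38 were found in the GENCODE M21 annotation of GRCm38. The samples were left ventricles of mice taken on day 9 of pressure overload by transverse aortic constriction (TAC), in which surgery narrows the aortic arch. There were 3 libraries in the Treg group, which the series title describes as given regulatory T cells induced in culture and deprived of CD28 by systemic administration, and 3 in the Control group. All 6 hearts had TAC; the labels used here do not give what the Control mice received, the strain, sex or age, or whether each library is 1 animal, and p-values therefore cover only the spread among libraries, which may be technical. The tissue was labelled as cardiomyocytes with other cells, and the ventricular muscle genes Myh6, Myl2, Tnnt2, Actc1 and Myh7 together stood at 35003 to 47535 CPM (counts scaled to a common library size) in the Treg libraries and 27070 to 42738 CPM in the Control libraries.

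The heart holds resident macrophages that settle before or soon after birth and renew in place, and monocyte-derived macrophages that enter from the blood after injury or load. Resident cells are known for clearing debris and supporting conduction and vessels, and carry scavenger receptors such as those encoded by Mrc1, Cd163, Lyve1 and Timd4. Recruited cells start from a Ly6c2- and Plac8-expressing monocyte and can take on a lipid-handling, matrix-remodelling state marked by Spp1, Gpnmb, Trem2 and Lgals3. In bulk tissue, fewer cells of a type and less RNA per cell cannot be told apart.

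Library totals were 29841591 to 29979080 estimated counts in the Treg group and 28937253 to 29842787 in the Control group. Control replicate 3 stood apart from the other libraries. Of 14969 tested genes averaging at least 1 CPM, 55 (0.367%) lay over 4-fold above every other library there and 104 (0.695%) over 4-fold below, against at most 7 genes in either direction in any other library. Treg replicate 3 held transcripts of atrial muscle, with Myl7, Sln and Myl4 summing to 118.8 CPM there against 2.79 to 4.81 CPM in the other 5 libraries. Fold changes of the macrophage genes that rest on a single library are given with and without it.

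Sequence upstream of the start sites played no part in the choice of genes. RefSeq promoter windows (GRCm38.p6) were matched for 29 of the 38 genes, and the 250 bases before the start nearest to the GENCODE gene start were searched on both strands for 3 motifs, none of which contains another: GAGGAA, the core of sites for the myeloid factor PU.1, CACGTG, the E-box read by MITF and TFE factors of lysosomal genes, and TGANTCA, the AP-1 site. GAGGAA was present in 16 of 29 genes, against 23.3% of all 32851 promoter windows of that length. CACGTG was present in 2 genes, Ctsd and Ctsl, against 6.02% of all windows, and TGANTCA in 2, Cd68 and Trem2, against 6.75%. A match is a description of letters and says nothing about binding. The upstream sequences of 4 genes, picked as examples, are printed 5′ to 3′ with matches in capitals. The windows of Ctsl, Lgals3 and C1qc overlap annotated exons in whole or part and were not printed. The 4 are C1qb (chr4:136886201-136886450, minus strand) for the even C1q chains, and Spp1 (chr5:104434861-104435110, plus strand), Trem2 (chr17:48346151-48346400, plus strand) and Gpnmb (chr6:49036268-49036517, plus strand) for the lipid-associated genes that were highest together in Control replicate 2.
C1qb: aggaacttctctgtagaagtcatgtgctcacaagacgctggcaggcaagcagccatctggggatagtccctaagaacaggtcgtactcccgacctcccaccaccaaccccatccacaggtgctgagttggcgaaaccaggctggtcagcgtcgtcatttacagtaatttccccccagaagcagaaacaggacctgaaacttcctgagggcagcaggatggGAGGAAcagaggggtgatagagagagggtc
Spp1: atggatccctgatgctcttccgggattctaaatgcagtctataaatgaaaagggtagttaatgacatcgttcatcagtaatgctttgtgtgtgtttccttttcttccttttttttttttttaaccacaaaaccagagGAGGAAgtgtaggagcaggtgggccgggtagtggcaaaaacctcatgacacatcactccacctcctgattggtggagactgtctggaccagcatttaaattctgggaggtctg
Trem2: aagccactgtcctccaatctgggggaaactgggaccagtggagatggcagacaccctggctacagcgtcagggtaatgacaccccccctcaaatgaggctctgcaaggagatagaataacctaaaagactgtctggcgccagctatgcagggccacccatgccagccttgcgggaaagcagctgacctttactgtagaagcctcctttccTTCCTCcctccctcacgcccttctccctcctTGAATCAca
Gpnmb: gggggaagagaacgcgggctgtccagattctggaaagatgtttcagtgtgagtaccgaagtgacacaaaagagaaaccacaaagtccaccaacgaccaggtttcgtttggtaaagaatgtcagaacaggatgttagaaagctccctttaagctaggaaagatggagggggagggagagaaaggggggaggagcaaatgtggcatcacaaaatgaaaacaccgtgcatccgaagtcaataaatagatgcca
C1qb and Spp1 each hold 1 GAGGAA, beginning 30 and 113 bases before the start. Trem2 holds 1 GAGGAA on the other strand, printed as its reverse complement, 40 bases before the start, and 1 TGANTCA at 9 bases. Gpnmb holds none of the 3 in this window.

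The comparison asks whether macrophage genes differed in the loaded ventricle of mice given regulatory T cells. No macrophage gene passed the threshold: 0 of the 36 genes tested had an adjusted p under 0.05 in edgeR's quasi-likelihood test fitted over 17365 genes (0% of all genes passed), and limma-voom also called 0. Without Control replicate 3 edgeR called 230 genes (1.3%), 0 of them on the macrophage list. DESeq2 called 2 of the 38, Ctsl and Chil3, where it called 3.33% of 18123 genes with an adjusted p. At an unadjusted p under 0.05 edgeR listed 9 of the 36 genes (16.5% of all genes), 8 of them lower in the Treg libraries (8.31% of all genes) and 1 higher (8.23%). These were Ctsl, Spp1, Lgals3, Cd9, Arg1, Gpnmb, Fcgr3 and Fabp5 on the lower side and Timd4 on the higher side. The groups did not overlap for 4 of the 36, below the 25.4% of all genes for which they did not: Ctsl, Cd9 and Fabp5 lay lower in every Treg library (11.7% of all genes did) and Timd4 higher (13.7%). Chil3 and Retnla did not pass the filter on low counts and were outside that fit.

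**Figure D1:**
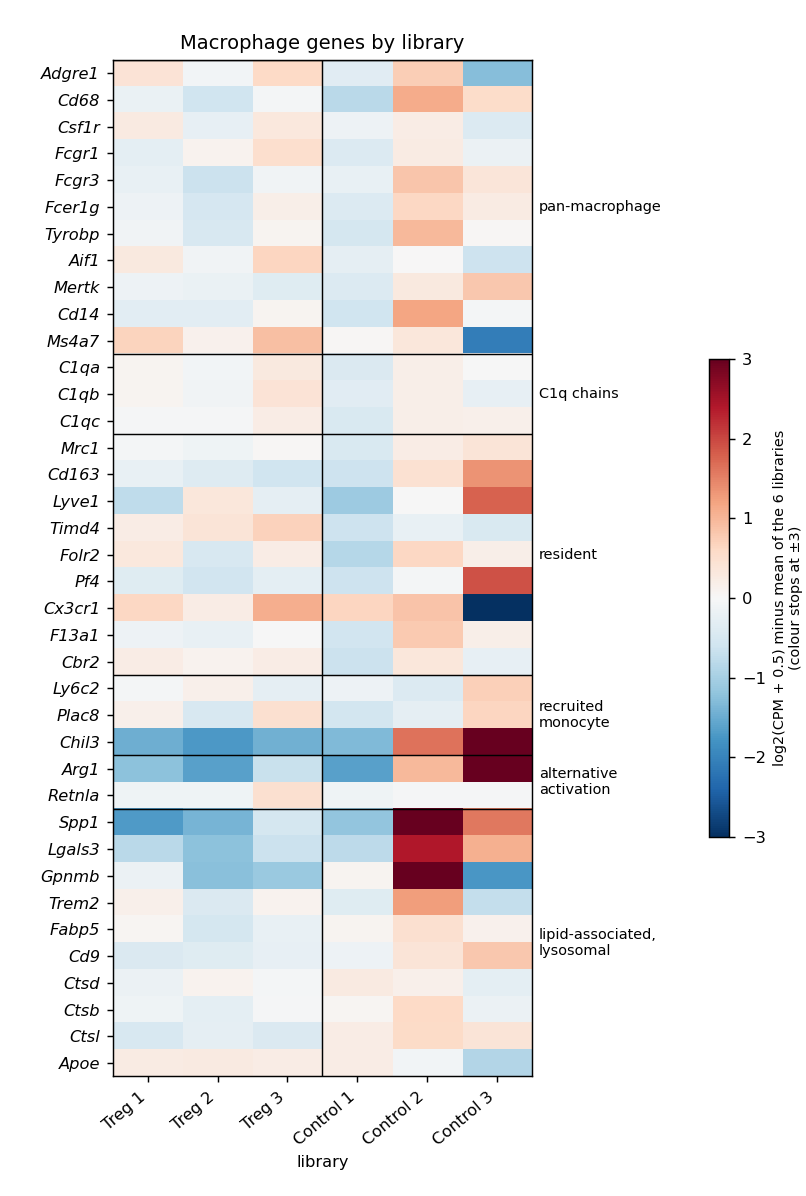
Level of each of the 38 macrophage genes in each library, as log2(CPM + 0.5) minus the mean of the 6 libraries, with red above and blue below that mean and lines between the role groups. Control replicate 2 is red for Spp1, Lgals3 and Gpnmb, and Control replicate 3 is red for Chil3, Arg1, Pf4 and Lyve1 and blue for Cx3cr1 and Ms4a7, while the 3 Treg libraries differ less from each other.

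The Control libraries differed from one another more than the Treg libraries did. The SD of log2 levels was larger among Control than among Treg libraries for 32 of 36 genes (88.9%), against 76.9% of all genes tested. Each Control library had its own pattern. Control replicate 1 was the lowest of the 6 libraries for 18 of 36 genes, against 12.7% of all genes, and the highest for 1. Control replicate 2 was the highest for 16 of 36, against 14.8% of all genes, and the lowest for 1. Control replicate 3 was the highest for 9 and the lowest for 9, against 33.3% and 31.9% of all genes. Treg replicate 3 was the highest for 9 genes, against 10.7% of all genes, and the lowest for 0. The ratio of the highest to the lowest library had a median of 2.87 over the 36 genes and 1.73 over all genes tested.

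Pan-macrophage receptors and adaptors, 11 genes, had fold changes on either side of 0, with 5 above and 6 below and a median log2 fold change of −0.37 against −0.02 over all genes tested. The median was 0.14 without Control replicate 2, and the 11 genes were on average 0.60 log2 units above their 6-library mean in that library. Csf1r (chromosome 18, 61100598 to 61132149), the receptor for the macrophage growth factor CSF1, had 75.9, 53.3 and 78.8 CPM in the Treg libraries and 56.2, 73.1 and 47.1 CPM in the Control libraries. The groups overlapped, and the log2 fold change of 0.24 (edgeR adjusted p = 0.579) had a 95% interval of −0.26 to 0.73. Cd68, a lysosomal membrane glycoprotein of phagocytes, had 14.4, 10.8 and 15.7 CPM in the Treg libraries and 9.12, 36.4 and 24.4 CPM in the Control libraries. Control replicates 2 and 3 lay above all Treg libraries and Control replicate 1 below them.

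Among these genes the smallest p belonged to Fcgr3, a low-affinity receptor for immunoglobulin G. It had 18.7, 13.7 and 20.2 CPM in the Treg libraries and 18.6, 39.2 and 28.1 CPM in the Control libraries, a log2 fold change of −0.71 ± 0.28 (SE) with edgeR's adjusted p = 0.285. Its transcript shares 512 bases at 96.3% identity with Fcgr2b, and the 2 genes summed gave −0.53 (edgeR adjusted p = 0.35), a sum chosen after seeing the data. Aif1, a calcium-binding protein of activated macrophages, was low throughout, at 3.17, 2.27 and 4.18 CPM in the Treg libraries and 1.97, 2.52 and 1.45 CPM in the Control libraries (0.70 ± 0.31, edgeR adjusted p = 0.315). Mertk, the receptor that takes up dying cells, had 6.53, 6.35 and 5.56 CPM in the Treg libraries and 5.40, 9.13 and 13.1 CPM in the Control libraries (−0.59 ± 0.31, edgeR adjusted p = 0.373). The Treg values of Mertk lay within the Control range. Ms4a7, a membrane protein of mature macrophages, had 11.4, 7.61 and 13.5 CPM in the Treg libraries and 7.12, 8.90 and 1.28 CPM in the Control libraries. Control replicate 3 lay over 4-fold below every other library for Ms4a7, and the log2 fold change of 0.91 was 0.44 without it.

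The remaining 5 pan-macrophage genes had log2 fold changes between −0.57 and 0.41 (edgeR adjusted p of 0.527 to 0.676). They were Adgre1, the classical adhesion receptor used to identify mouse macrophages, Fcgr1, the high-affinity immunoglobulin G receptor, Cd14, a co-receptor for lipopolysaccharide, and the signalling adaptors Fcer1g and Tyrobp. Adgre1 was at 19.9, 14.0 and 22.7 CPM in the Treg libraries and at 11.7, 25.0 and 5.86 CPM in the Control libraries. Its log2 fold change was 0.41 over all libraries, 1.10 without Control replicate 2 and 0.04 without Control replicate 3.

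The 3 chains of C1q, the recognition subunit of the classical complement pathway and a steady product of tissue macrophages, were among the most even genes of the list. C1qa (chromosome 4, 136895917 to 136898803) had 68.5, 61.2 and 79.5 CPM in the Treg libraries and 48.2, 73.3 and 64.0 CPM in the Control libraries. C1qb had 47.1, 41.2 and 59.0 CPM in the Treg libraries and 35.1, 50.2 and 37.5 CPM in the Control libraries. C1qc had 49.9, 49.7 and 59.7 CPM in the Treg libraries and 37.0, 58.2 and 57.3 CPM in the Control libraries. The groups overlapped for all 3 chains, with Control replicate 1 the lowest library and Treg replicate 3 the highest each time. Log2 fold changes were 0.17 ± 0.18, 0.26 ± 0.19 and 0.06 ± 0.19 (edgeR adjusted p = 0.639, 0.5 and 0.885), and the 95% interval reached from −0.25 to 0.60 for C1qa, from −0.18 to 0.71 for C1qb and from −0.39 to 0.52 for C1qc. The count ratio of C1qa to C1qb stayed between 1.35 and 1.48 in the Treg libraries and between 1.37 and 1.71 in the Control libraries. C1qc to C1qb ran from 1.01 to 1.21 in the Treg libraries and from 1.05 to 1.53 in the Control libraries, with both ratios highest in Control replicate 3.

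Of the 9 genes of resident macrophages, 3 had fold changes above 0 and 6 below, with a median of −0.15. Timd4 (chromosome 11, 46810800 to 46844332), a phosphatidylserine receptor of long-lived resident macrophages, had 12, 14 and 24 counts in the Treg libraries and 0, 5 and 2 counts in the Control libraries. Every Treg library lay above every Control library, at 0.396, 0.505 and 0.754 CPM in the Treg libraries and 0, 0.166 and 0.0673 CPM in the Control libraries, where 3 counts are worth 0.0942 to 0.108 CPM. The log2 fold change was 2.75 ± 0.69 (adjusted p = 0.175 in edgeR and 0.0636 in DESeq2), and it lay between 2.21 and 3.86 when each library was left out in turn. These counts were among the lowest of the list, so the size of the difference was imprecise.

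Control replicate 3 split the resident genes. Cx3cr1 (chromosome 9, 119901616 to 120069879), the fractalkine receptor, had 8.18, 6.06 and 11.6 CPM in the Treg libraries and 8.28, 9.73 and 0.0337 CPM in the Control libraries. Its log2 fold change was 0.52 (edgeR adjusted p = 0.813), −0.06 without Control replicate 3 and 2.40 by limma-voom. Control replicate 3 held 1 count of it beside 1400 counts of Csf1r, a ratio of 0.000714 against 0.108 to 0.147 in the other 5 libraries. Pf4, a platelet chemokine that resident macrophages also make, had 6.46, 5.59 and 6.91 CPM in the Treg libraries and 5.40, 8.11 and 33.1 CPM in the Control libraries. Control replicate 3 was over 4-fold above all other libraries for Pf4, and the log2 fold change of −1.30 ± 0.63 (edgeR adjusted p = 0.345) was −0.10 without it. Platelet markers were Ppbp, Gp9, Gp1bb and Itga2b (4 of 4 detected). They summed to 4.54 to 7.25 CPM in the Treg libraries and 4.83 to 8.62 CPM in the Control libraries. The sum was highest in Control replicate 3, as Itga2b was, at 5.25 CPM. Ppbp and Gp9 were highest in Treg replicate 1 and Gp1bb in Control replicate 1. The part of platelets in the Pf4 value was not tested.

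Cd163, the scavenger receptor for haemoglobin bound to haptoglobin, followed the same library. It had 27.8, 24.7 and 21.1 CPM in the Treg libraries and 20.99, 44.5 and 82.9 CPM in the Control libraries, a log2 fold change of −1.01 ± 0.43 (edgeR adjusted p = 0.303) that was −0.42 without Control replicate 3. The groups overlapped through Control replicate 1. Lyve1, a hyaluronan receptor of vessel-associated macrophages and of lymphatic endothelium, had 6.89, 15.3 and 9.83 CPM in the Treg libraries and 5.40, 12.0 and 41.9 CPM in the Control libraries. Its log2 fold change was −0.89 over all libraries, 0.29 without Control replicate 3 and −0.48 by limma-voom. Lymphatic endothelial markers (Prox1, Flt4, Ccl21a and Mmrn1, 4 of 4 detected) summed to 87.8 to 95.2 CPM in the Treg libraries and 79.1 to 103.3 CPM in the Control libraries, with Control replicate 3 at 82.9 CPM. Prox1 made up most of the sum, and Prox1, Flt4 and Mmrn1 overlapped between groups. Ccl21a was higher in every Treg library, at 8.949 to 10.75 CPM, than in any Control library, at 2.255 to 5.615 CPM, and lowest in Control replicate 3. The part of lymphatic endothelium in the Lyve1 values was not tested.

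The other 4 resident genes were closer between groups. Mrc1, the mannose receptor, had 62.5, 59.5 and 66.9 CPM in the Treg libraries and 47.4, 76.7 and 85.1 CPM in the Control libraries, a log2 fold change of −0.15 with a 95% interval of −0.65 to 0.35. F13a1, the factor XIII A subunit made by monocytes and macrophages, had 51.4 ± 3.69 CPM in the Treg libraries and 65.8 ± 29.7 CPM in the Control libraries (mean ± SD, n = 3 each). Cbr2, a carbonyl reductase, had 15.5 ± 0.704 and 12.4 ± 4.48 CPM in the Treg and Control libraries, and Folr2, the folate receptor beta, had 7.36 ± 2.19 and 7.63 ± 3.77 CPM. For Mrc1, F13a1 and Cbr2 the Treg libraries were within a few CPM of each other and the Control libraries spread to both sides of them. Folr2 overlaps an antisense gene, Gm10602, at 224 to 234 counts in the Treg libraries and 157 to 187 in the Control libraries, similar in size to the 135 to 271 and 104 to 337 counts of Folr2 itself. The kit keeps strand, but with no source used here for the strand setting of the counting, the Folr2 values are uncertain. Csf1r, Ctsb and Cd9 also overlap genes of the other strand (Hmgxb3, Fdft1 and Gm26728), each with fewer counts than the listed gene. Spp1 overlaps Gm42793 on its own strand, at 33 to 65 counts in the Treg libraries and 43 to 879 in the Control libraries.

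**Figure D2:**
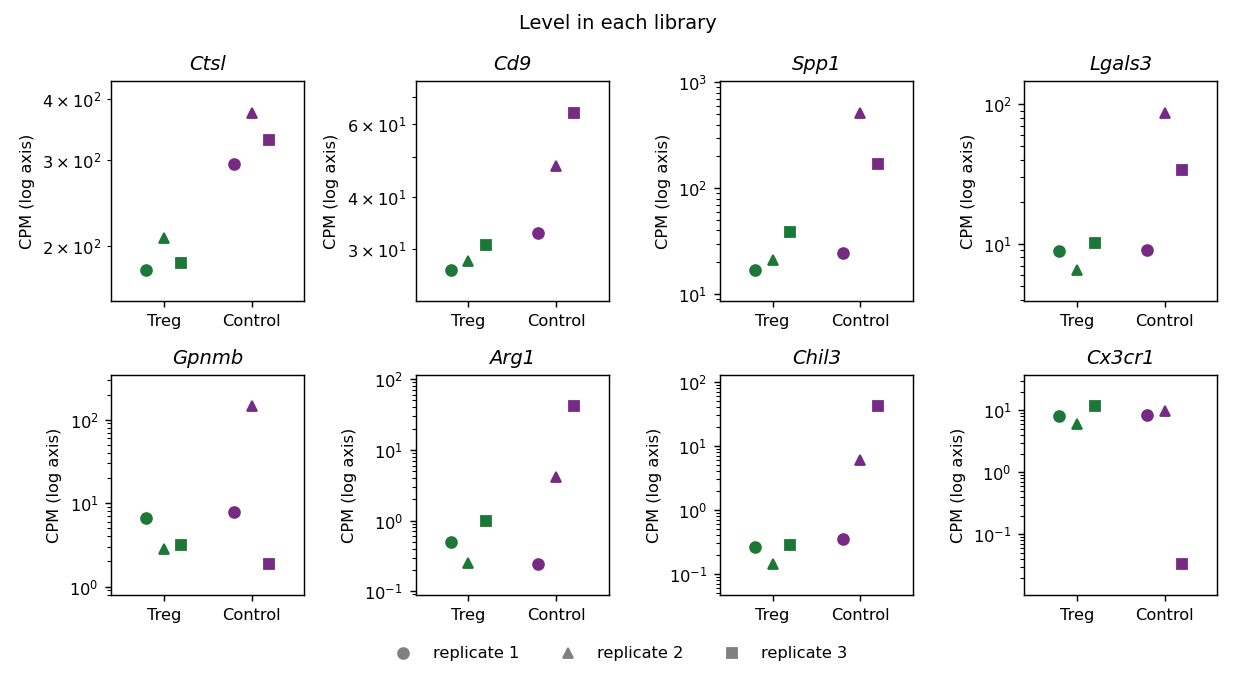
Level of 8 macrophage genes in CPM on log axes, 1 panel per gene, with the Treg libraries (green) left of the Control libraries (purple) and a marker shape for each replicate number. Ctsl, Cd9 and Chil3 separate the groups. Spp1, Lgals3, Gpnmb, Arg1, Chil3 and Cx3cr1 have their most distant values in Control replicate 2 or 3.

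Genes of recruited monocytes could be read only in part. Ly6c2, the surface antigen that defines inflammatory monocytes in mice, had 13.5, 15.7 and 11.4 CPM in the Treg libraries and 12.6, 10.5 and 23.4 CPM in the Control libraries (−0.20 ± 0.30, edgeR adjusted p = 0.754). Its transcript matches that of Ly6c1, an endothelial gene, over 822 bases at 97.6% identity, and its counts were 0.216, 0.218 and 0.231 of the Ly6c1 counts in the Treg libraries and 0.209, 0.21 and 0.21 in the Control libraries. How reads common to both were assigned was not tested, so the Ly6c2 values are uncertain and were read no further as those of a monocyte gene. Fabp4, Pecam1, Cdh5 and Kdr are genes of blood endothelium (4 of 4 detected). They summed to 768.7 to 976.3 CPM in the Treg libraries and 717.2 to 1550 CPM in the Control libraries. The sum was highest in Control replicate 3, as Ly6c1 was, and so were Fabp4, at 1005 CPM there, and Pecam1. Cdh5 and Kdr were highest in Treg replicate 1, at 171.1 and 164.8 CPM. Plac8, a gene of blood monocytes and other leukocytes, was at 27, 11 and 39 counts in the Treg libraries and 10, 16 and 43 counts in the Control libraries (0.12 ± 0.60, edgeR adjusted p = 0.935).

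**Figure D3:**
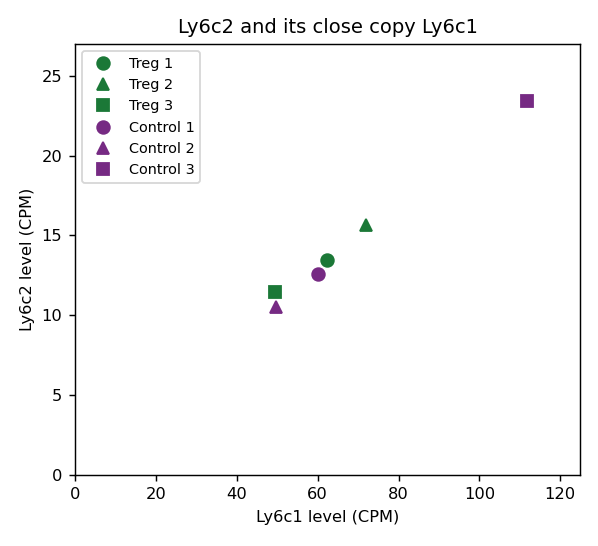
Level of Ly6c2 against that of its close copy Ly6c1, both in CPM, with 1 point per library. The points fall near 1 line through the origin in the Treg and Control libraries, and Control replicate 3 lies highest on both axes.

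Chil3 (chromosome 3, 106147554 to 106167564), a chitinase-like lectin of monocytes, neutrophils and alternatively activated macrophages, had 8, 4 and 8.5 estimated counts in the Treg libraries and 9.5, 183.75 and 1235.58 in the Control libraries. It was over 4-fold above all others in Control replicate 3, at 41.6 CPM, and at 6.09 CPM in Control replicate 2. Control replicate 1 at 0.351 CPM was near the Treg libraries at 0.144 to 0.283 CPM but above all of them, so the groups did not overlap. Chil3 did not pass the filter on low counts. DESeq2 called it at a log2 fold change of −6.10 (DESeq2 adjusted p = 0.00378), and edgeR with no filter gave −6.03 (edgeR adjusted p = 0.387). Leaving out Control replicate 3 gave −3.77 (edgeR adjusted p = 0.217).

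Arg1 (chromosome 10, 24915221 to 24927484), the arginase of alternatively activated and wound macrophages, shared its 2 highest libraries with Chil3. Arg1 stood at 0.495, 0.252 and 0.974 CPM in the Treg libraries and 0.246, 4.07 and 41.3 CPM in the Control libraries. The log2 fold change of −4.70 ± 1.55 (edgeR adjusted p = 0.238, DESeq2 adjusted p = 0.0689) was −1.89 without Control replicate 3 and −2.78 by limma-voom, and the groups overlapped because Control replicate 1 was the lowest library, just under Treg replicate 2. Neutrophil markers, 9 of 11 with at least 10 counts in some library, summed to 8.92 to 19.8 CPM in the Treg libraries and 7.44 to 42.2 CPM in the Control libraries, highest in Control replicate 3, as were S100a8 and S100a9. S100a8 had 33 to 126 counts in the Treg libraries and 25 to 355 in the Control libraries, and S100a9 had 55 to 170 and 42 to 389. Cxcr2, Mmp8, Mmp9, Ngp and Retnlg were also highest in Control replicate 3. Csf3r was highest in Treg replicate 1, at 7.09 CPM against 5.72 CPM in Control replicate 3, and Camp and Ltf were highest in Treg replicate 2. Ly6g was at 1 to 4 counts in the Treg libraries and at 0 in the Control libraries. The part of neutrophils in the Chil3 and Arg1 values was not tested. Retnla, another product of alternative activation, was at 1, 1 and 10 counts in the Treg libraries and 1, 2 and 2 in the Control libraries, so it did not follow Arg1 and was too low to test.

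The lipid-associated and lysosomal group held most of the small p-values. Of its 10 genes, 9 had a fold change below 0, against 52% of all genes tested. In edgeR 6 of the 10 were lower at an unadjusted p under 0.05, against 8.31% of all genes tested. The median log2 fold change was −0.61, and −0.28 without Control replicate 2. None passed the adjusted threshold in edgeR, and Apoe alone had a fold change above 0. The group's mean log2 level relative to the pan-macrophage genes was −0.37, −0.27 and −0.55 in the Treg libraries and 0.22, 0.72 and 0.25 in the Control libraries, measured from the 6-library mean. The groups did not overlap on this scale. The difference, −0.79 log2 units, lay between −0.88 and −0.63 when each library was left out in turn. It rested mostly on Spp1, Lgals3 and Gpnmb, whose log2 fold changes of −3.22, −2.35 and −3.61 were the largest of the group. Before that subtraction the group stood at −0.34, −0.54 and −0.30 in the Treg libraries and −0.15, 1.32 and 0.02 in the Control libraries. The gap was narrower there, because the pan-macrophage mean was itself lowest in Control replicate 1, at −0.37. That mean was highest in Control replicate 2, at 0.60, so the narrow range over omitted libraries depends in part on the subtraction. How often other gene groups of this size separate the libraries was not computed.

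Ctsl (chromosome 13, 64359337 to 64370890), a lysosomal cysteine protease that is also made by muscle cells and fibroblasts, had the smallest p of the 36 genes. It stood at 178.4, 207.7 and 184.7 CPM in the Treg libraries and 294, 375.5 and 329.6 CPM in the Control libraries. All 3 Treg libraries lay below all 3 Control libraries, with a gap wider than the spread in the Treg group. The log2 fold change was −0.81 ± 0.15 (95% interval −1.16 to −0.46), with edgeR's adjusted p = 0.116, limma-voom's adjusted p = 0.111 and DESeq2's adjusted p = 0.000214. It kept its sign in every alternative run, at −0.88 to −0.71 when each library was left out in turn, with edgeR's adjusted p between 0.0543 without Control replicate 3 and 0.53 without Treg replicate 1. Fibroblast markers were Pdgfra, Dcn, Lum and Col1a1 (4 of 4 detected). They summed to 1380 to 2087 CPM in the Treg libraries and 1595 to 2007 CPM in the Control libraries. The sum of the ventricular muscle genes, given above, overlapped between groups as well. Single genes did not all follow these sums. Dcn, Myl2, Actc1 and Myh7 were higher in every Treg library than in any Control library. Dcn had 787.3 to 848.6 CPM in the Treg libraries and 564.2 to 760.4 CPM in the Control libraries. Myh7 had 4396 to 5382 and 1523 to 3761 CPM. Pdgfra, Lum, Col1a1, Myh6 and Tnnt2 overlapped between groups. The part of either cell type in the Ctsl values was not tested. Ctsl also shares stretches of 169 to 191 bases at over 95% identity with transcripts of 19 other genes found by blastn, which were not summed with it.

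The related proteases did not separate the groups. Ctsb, another lysosomal cysteine protease, had 657.7, 593.9 and 701 CPM in the Treg libraries and 753.6, 1087 and 641.1 CPM in the Control libraries (−0.35 ± 0.22, edgeR adjusted p = 0.445). Ctsd, the lysosomal aspartyl protease, had 981.5, 1203 and 1063 CPM in the Treg libraries and 1337, 1241 and 907.9 CPM in the Control libraries (−0.10 ± 0.19, edgeR adjusted p = 0.804). Per kilobase of annotated exon, Ctsd was the most abundant gene of the list, at 461 CPM per kb in the Treg libraries and 494 in the Control libraries. Apoe, the lipid carrier protein, followed at 220 and 164 CPM per kb in the Treg and Control libraries. Ctsb came next in the Treg libraries at 108 CPM per kb, against 137 in the Control libraries, where Spp1 reached a mean of 144. Exon lengths counted all annotated isoforms, which lowers this value for genes with long rare isoforms. The highest pan-macrophage gene by this measure, Tyrobp, had 20.3 CPM per kb in the Treg libraries and 27.9 in the Control libraries. The part of other cell types in the Ctsd, Ctsb and Apoe values was not tested.

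Spp1 (chromosome 5, 104435118 to 104441050), osteopontin, a secreted matrix protein of recruited and lipid-associated macrophages and of stressed muscle, differed 30.5-fold between its highest and lowest library. It had 17.0, 20.9 and 38.5 CPM in the Treg libraries and 24.5, 519.7 and 168.9 CPM in the Control libraries. Control replicates 2 and 3 lay above all Treg libraries, and Control replicate 1 lay among them. The log2 fold change of −3.22 ± 0.95 (edgeR adjusted p = 0.215) was −1.91 without Control replicate 2 and −3.42 without Control replicate 3. Lgals3, galectin 3, a carbohydrate-binding protein of phagocytes, had 8.94, 6.53 and 10.1 CPM in the Treg libraries and 9.02, 87.2 and 33.9 CPM in the Control libraries. It had the same order of Control libraries as Spp1, and its log2 fold change of −2.35 ± 0.71 (edgeR adjusted p = 0.218) was −1.32 without Control replicate 2.

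Gpnmb (chromosome 6, 49036546 to 49070929), a lysosomal glycoprotein of lipid-loaded macrophages, was high in 1 library. It had 6.595, 2.85 and 3.17 CPM in the Treg libraries and 7.93, 144.5 and 1.89 CPM in the Control libraries. Control replicate 2 was over 4-fold above every other library (0.0468% of genes were), and Control replicate 3, high for Spp1 and Lgals3, was the lowest of the 6 for Gpnmb. The log2 fold change of −3.61 ± 1.42 (edgeR adjusted p = 0.283) was −0.23 without Control replicate 2 and −1.73 by limma-voom. Trem2, a lipid-sensing receptor that signals through Tyrobp, had 10.1, 6.49 and 9.77 CPM in the Treg libraries and 6.88, 22.2 and 5.32 CPM in the Control libraries. Its log2 fold change was −0.39 over all libraries and 0.52 without Control replicate 2. Of 5 genes of melanocytes, which also make Gpnmb, Tyrp1 was at 0 in all libraries, 2 reached 10 counts in any library, and the 5 summed to 3.13 to 4.65 CPM in the Treg libraries and 1.15 to 2.91 CPM in the Control libraries. Their part in the Gpnmb values was not tested.

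Cd9 and Fabp5 separated the groups by smaller margins. Cd9, a tetraspanin of many cell types, had 26.7, 28.0 and 30.7 CPM in the Treg libraries and 32.9, 47.5 and 64.1 CPM in the Control libraries, a log2 fold change of −0.76 ± 0.23 (edgeR adjusted p = 0.219) that lay between −0.96 and −0.50 when each library was left out in turn. Gm26728, which overlaps Cd9 on the other strand, had 104 to 147 counts in the Treg libraries and 109 to 241 in the Control libraries. Its part in the Cd9 values was not tested. Fabp5, a fatty acid binding protein also found in endothelium, had 22.3, 14.6 and 18.2 CPM in the Treg libraries and 22.6, 29.9 and 23.3 CPM in the Control libraries. Treg replicate 1 and Control replicate 1 differed by less than 1 CPM. Its log2 fold change was −0.46 ± 0.19 (edgeR adjusted p = 0.296), and −0.42 when summed with its processed pseudogenes Gm6166 and Gm14328, the first of which matches it over 409 bases at 98.3% identity. Apoe had 472.1, 479.7 and 459 CPM in the Treg libraries and 463.4, 374 and 214.7 CPM in the Control libraries. The Treg libraries lay close together, with 470 ± 10.5 CPM against 351 ± 126 CPM in the Control libraries (SD, n = 3 each), and the log2 fold change of 0.42 ± 0.27 (edgeR adjusted p = 0.444) was 0.17 without Control replicate 3.

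**Figure D4:**
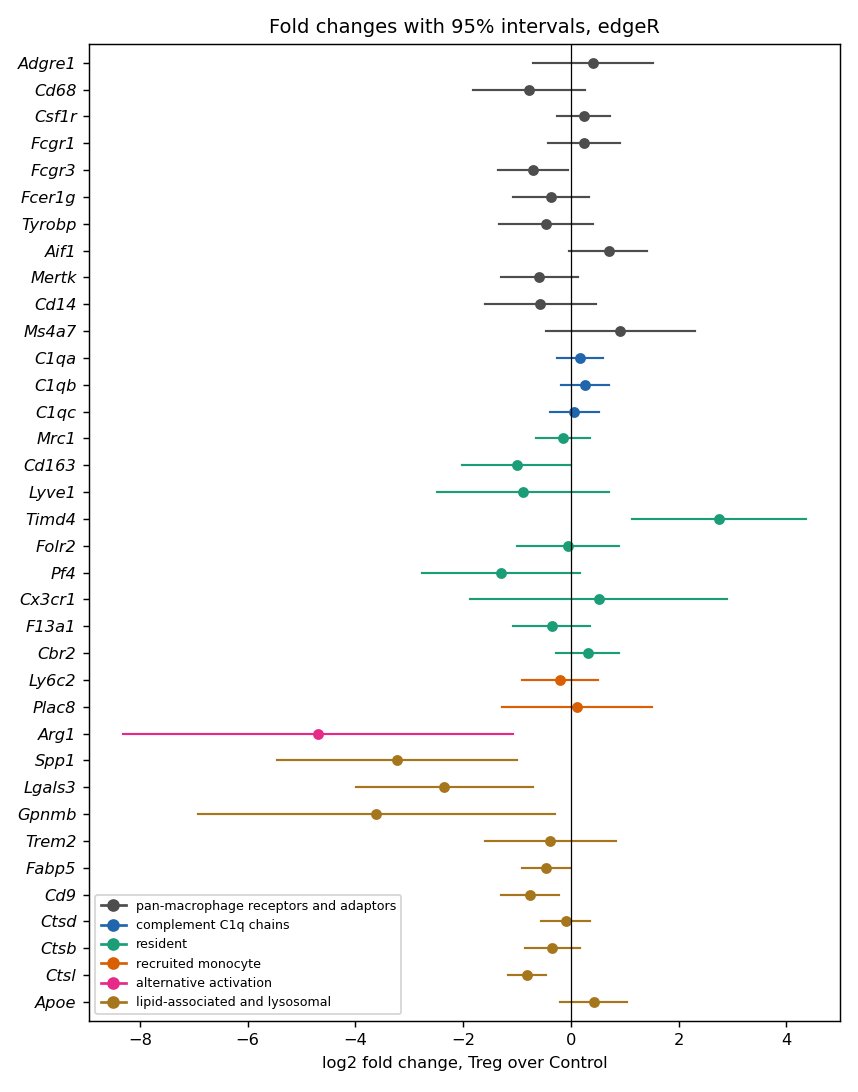
Log2 fold change of Treg over Control for the 36 tested genes (points) with 95% intervals from edgeR (lines), coloured by role group. The intervals of Ctsl, Cd9, Spp1, Lgals3, Gpnmb, Arg1, Fcgr3, Fabp5 and Timd4 exclude 0 before adjustment over all genes, and those of the C1q chains are among the narrowest and include 0.

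The other role groups were set against the pan-macrophage genes of the same library in the same way, with no test. Resident genes averaged −0.04, 0.18 and −0.13 log2 units in the Treg libraries and −0.16, −0.27 and 0.42 in the Control libraries on that scale, and overlapped. C1q chains averaged 0.02, 0.19 and 0.05 in the Treg libraries and −0.04, −0.42 and 0.20 in the Control libraries, and overlapped as well. The recruited monocyte group stood at −0.48, −0.41 and −0.67 in the Treg libraries and −0.30, −0.28 and 2.13 in the Control libraries. Control replicates 1 and 2 lay close to the Treg libraries and Control replicate 3 far above them, and the difference of −1.04 was −0.23 without that library. The high value there rested mostly on Chil3, at 41.6 CPM in Control replicate 3 and 0.144 to 6.09 CPM in the other libraries. Ly6c2 had 23.4 CPM there and 10.5 to 15.7 CPM in the others. This mean of 3 genes includes Ly6c2 and rests on Chil3, and is therefore not read as a level of monocytes.

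**Figure D5:**
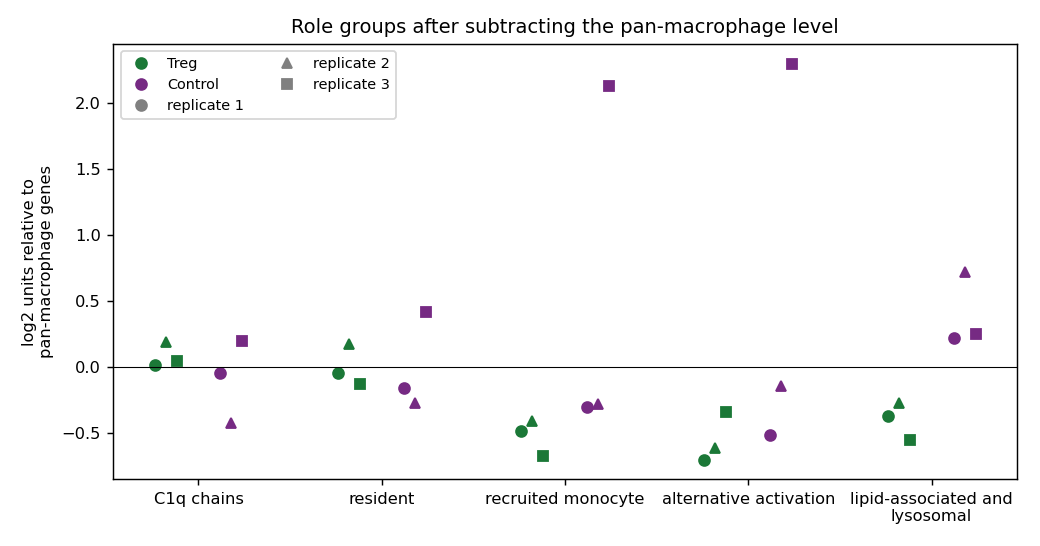
Mean log2(CPM + 0.5) of each role group minus that of the 11 pan-macrophage genes in the same library, centred on the 6 libraries, with Treg (green) left of Control (purple). The lipid-associated and lysosomal group lies at −0.55 to −0.27 in the Treg libraries and 0.22 to 0.72 in the Control libraries, and the monocyte and alternative activation groups are highest in Control replicate 3 at 2.13 and 2.30.

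Other genes of macrophage growth, entry, uptake and activation gave no call either. Of 70 such genes, 67 were tested, 0 passed in edgeR, and the median log2 fold change was −0.32, with 21 genes above 0 and 46 below. At an unadjusted p under 0.05 there were 4 higher (8.23% of all genes) and 12 lower (8.31% of all genes), 9 of the 16 from the activation products. The growth factors of macrophages were even: Csf1 had 43.5 ± 8.24 CPM in the Treg libraries and 39.6 ± 8.4 CPM in the Control libraries, and Il34 had 4.29 ± 0.480 and 3.81 ± 0.211 CPM. The 4 with the smallest p on the lower side were Clec4d, a C-type lectin of myeloid cells, Hif1a, the hypoxia-induced factor, Hmox1, the haem-degrading oxygenase, and Il1rn, the interleukin 1 receptor antagonist. Hif1a had 95.7, 90.7 and 101.1 CPM in the Treg libraries and 131.6, 138 and 128.1 CPM in the Control libraries, a log2 fold change of −0.47 ± 0.12 (edgeR adjusted p = 0.17; DESeq2 called it) with tight values in both groups. Clec4d had 1.29, 0.902 and 1.19 CPM in the Treg libraries and 1.68, 6.62 and 9.12 CPM in the Control libraries (−2.36 ± 0.57, edgeR adjusted p = 0.165; DESeq2 called it). Hmox1, which degrades the haem that Cd163 brings in, had 12.2, 11.2 and 18.3 CPM in the Treg libraries and 18.8, 32.9 and 187.9 CPM in the Control libraries, highest in Control replicate 3, as Cd163 was. The Hmox1 log2 fold change of −2.52 (edgeR adjusted p = 0.235) was −0.89 without that library. Il1rn had 0.627, 0.433 and 0.879 CPM in the Treg libraries and 0.877, 27.9 and 1.04 CPM in the Control libraries, high in Control replicate 2, as Gpnmb was. For Il1rn the log2 fold change of −3.93 (edgeR adjusted p = 0.256) was −0.56 without that library.

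On the higher side the 4 genes were Cebpb, Nos2, Abca1 and Siglec1. Cebpb, a transcription factor of myeloid activation, had 16.2, 14.1 and 17.5 CPM in the Treg libraries and 11.9, 11.6 and 12.4 CPM in the Control libraries (0.41 ± 0.14, edgeR adjusted p = 0.245). Abca1, which exports cholesterol to Apoe-type carriers, had 62.2, 68.9 and 60.1 CPM in the Treg libraries and 57.6, 43.8 and 42.9 CPM in the Control libraries (0.41 ± 0.15, edgeR adjusted p = 0.266). Nos2, the inducible nitric oxide synthase, had 11.1, 6.82 and 7.41 CPM in the Treg libraries and 5.90, 5.63 and 4.11 CPM in the Control libraries (0.70 ± 0.25, edgeR adjusted p = 0.257). For these 3 genes, of 67 tested, every Treg library lay above every Control library, against 13.7% of all genes. For 4 of the 67, Hif1a, Mfge8, Hmox1 and Clec4d, every Treg library lay below, against 11.7% of all genes. Siglec1, a sialic acid receptor induced by interferon, overlapped, at 12.6 ± 3.69 CPM in the Treg libraries and 8.06 ± 1.79 CPM in the Control libraries (0.65 ± 0.27, edgeR adjusted p = 0.291).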

How the data were processed

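Bulk RNA sequencing of 6 left ventricles was analysed. The authors deposited estimated counts per Ensembl gene, not normalized; 46.51% to 50.03% of values above 0 in a library are fractional, and no source used here says how they arose. The build GRCm38 and the tools HISAT2 2.1.0, Trimmomatic 0.39, Cuffdiff 2.2.1 and featureCounts 2.0.6 are listed in the submitters' processing notes, without roles. Another 6 columns could be tied to no listed sample and were left out. Of 47729 gene IDs, 47310 matched GENCODE M21.

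Estimated counts were rounded to whole numbers, although raw counts had been anticipated. Genes were kept by filterByExpr (17365), scaled by TMM and tested two-sided with edgeR 4.0.16 (R 4.3.3), robust quasi-likelihood, without covariates, Benjamini-Hochberg at 0.05. SEs are |log2 fold change|/√F, and 95% intervals use the test's degrees of freedom. CPM use TMM-scaled totals; log levels use a pseudocount of 0.5 CPM. Alternatives were DESeq2 1.42.0, limma-voom (limma 3.58.1), other scalings, filters, the replicate block, omitted libraries and summed close copies. One run summed Ly6c1, Chil4 and Fabp5l2 with Ly6c2, Chil3 and Fabp5, copies named without a sequence search. Another run summed copies found with blastn (at least 95% identity over 150 bases), and Chil4 again, which blastn did not find. Shorter matches of Ctsl (19 genes, at most 191 bases) and Cd9 (2 genes, at most 172 bases) and overlapping genes were not summed. The tests were checked on simulated counts with equal spread in both groups and no library apart, unlike these data. That check does not show how the tests behave with a library such as Control replicate 3. The 15 library pairs had chi-square per degree of freedom of 17.7 to 137, so no library was a copy of another.

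The members and lists were chosen with earlier results of these data known. Values per library are given for members passing the threshold, the 3 smallest p per role group, groups that do not overlap, and single libraries over 4-fold apart at a mean of at least 1 CPM, and for others to complete a role group; of the pathway list, the 4 smallest p in each direction.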

Additional observations from a re-analysis of the deposited data

How the results depend on the processing

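No macrophage gene passed in edgeR in any alternative run, and DESeq2 called 2. Over all genes the count of calls was 0, and 604 by DESeq2, 38 with no filter on low counts, 82 at an adjusted p under 0.1, 119 with both replicates numbered 3 left out, and 0 to 230 when each library was left out, 230 being without Control replicate 3; none of these edgeR calls was a macrophage gene at an adjusted p under 0.05. DESeq2 also called 2 genes of the wider pathway list. The median of the pan-macrophage group was −0.61 to 0.14 over omitted libraries, that of the lipid-associated group −0.76 to −0.28, that of the monocyte group −3.13 when genes averaging at least 1 CPM were kept, which admits Chil3 and drops Plac8. The alternative activation median rests on 1 or 2 genes: it was −5.32 to −1.89 over omitted libraries, −2.52 with both replicates numbered 3 left out, −2.78 by limma-voom, and −1.75 by DESeq2 and −1.74 with no filter, where Retnla enters.

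With the replicate number as a block it was −3.47, Folr2 had 0.04, and the block changed no other call, with 0 genes called. Same-numbered libraries did not deviate together (correlations of −0.116, −0.225 and 0.046 between deviations from the group means), so the numbers were not taken as pairs. Values moved by over 1.5 times with the block and by limma-voom for Gpnmb (−1.45 and −1.73), Cx3cr1 (1.04 and 2.40), Lyve1 (−0.45 and −0.48), Pf4 (−0.85 by both), Trem2 (−0.09 and −0.12), Cd14 (−0.36 and −0.37), Adgre1 (0.62 and 0.63), Ly6c2 (−0.12 and −0.13) and Plac8 (0.19 and 0.24). Signs also turned for Folr2 by limma-voom (0.05) and, with both replicates numbered 3 left out, for Adgre1 (−0.13), Csf1r (−0.01), Fcgr1 (−0.07), Lyve1 (0.34), Cx3cr1 (−0.35) and Ly6c2 (0.32); the cause was not tested. Leaving out 1 library turned the sign in 17 of 216 cases, in ranges of −0.00 to 0.47 for Fcgr1, −0.75 to 0.07 for Tyrobp, −0.89 to 0.14 for Cd14, −0.11 to 0.18 for C1qc, −0.35 to 0.02 for Mrc1, −1.32 to 0.29 for Lyve1, −0.38 to 0.33 for Folr2, −0.06 to 1.04 for Cx3cr1, −0.63 to 0.03 for F13a1, −0.41 to 0.23 for Ly6c2, −0.26 to 0.93 for Plac8, −0.73 to 0.52 for Trem2 and −0.25 to 0.02 for Ctsd. At these depths Timd4, Plac8 and Retnla rest on few counts.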

Other observations

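Proliferation genes split the libraries in a way that crossed the groups. Mki67, Top2a, Cdk1 and Ccnb1 summed to 57.9, 6.24 and 49.99 CPM in the Treg libraries and 9.65, 70 and 56.7 CPM in the Control libraries, so that Treg replicate 2 and Control replicate 1 were low and the other 4 high. The same 2 libraries had the lowest mean level of the 11 pan-macrophage genes, at −0.27 and −0.37 log2 units from the 6-library mean. Control replicate 3, where proliferation genes were high, was close to them at −0.24. Treg replicate 2 and Control replicate 1 also had the lowest sums of leukocyte genes (Ptprc, Laptm5, Cd53 and Coro1a), at 59.1 and 53.0 CPM. The others had 61.3 to 108.3 CPM, and Control replicate 3 was again close, at 61.3 CPM.

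Control replicates 2 and 3 were both high for Spp1 and Lgals3 and differed in what went with them. Control replicate 2 also held Mmp12, macrophage elastase, at 108.5 CPM and Atp6v0d2, a lysosomal proton pump subunit, at 16.4 CPM, against 0.673 and 0.202 CPM in Control replicate 3. Control replicate 3 held the chemokine gene Ccl6 at 166 CPM and the interleukin 4 receptor gene Il4ra at 116.1 CPM, against 33.7 and 36.2 CPM in Control replicate 2. These genes were picked after their values were seen.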
